A study of Homo sapiens with 6 samples.

Results

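The metallothionein genes MT1E, MT1F, MT1G, MT1M, MT1X and MT2A, the zinc-sensing transcription factor gene MTF1 and the zinc exporter gene SLC30A1 were examined in SCC-9 cells after knockdown of Ki67. They were chosen by their symbols, as 8 of the 25349 genes of a table of RNA sequencing counts, and each of the 8 symbols had 1 row. Of these genes, 6 had enough reads to be tested, while MT1G and MT1M did not. MT2A and MT1E fell after the knockdown, MTF1 was higher by less than the fold required for a call, and MT1X, MT1F and SLC30A1 did not pass the test.

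SCC-9, an established human cell line, was derived from a squamous cell carcinoma of the tongue. Cells received 10 nM of an siRNA that targets exon 7 of MKI67, which encodes Ki67 (siE7), or the same dose of a nonspecific siRNA (siNC), on day 0 and again on day 2, and RNA was taken on day 4. All cells of both groups were kept in medium with 400 ng/mL hydrocortisone, a glucocorticoid, and were transfected with a lipid reagent. Each group had 3 libraries of 1 cell line, the exon 7 siRNA used among those listed in the methods is not named, and nothing states that the libraries came from separate cultures, so p-values measure only the spread between these libraries, which may be technical.

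Metallothioneins are small proteins rich in cysteine, whose sulphur atoms bind zinc, copper and cadmium, and in humans most of their genes lie side by side on chromosome 16. When free zinc rises, MTF1 binds to metal response elements in DNA and induces the metallothionein genes and SLC30A1, whose product carries zinc out of the cell across the plasma membrane. Metallothionein genes are also induced by glucocorticoids and by oxidative stress.

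The coding sequences of MT2A, MT1E, MT1X and MT1F are shown because reads of such similar genes can be hard to assign. They are the transcript sequences of GENCODE v44, 5′ to 3′, with the codons for cysteine in capitals.
MT2A: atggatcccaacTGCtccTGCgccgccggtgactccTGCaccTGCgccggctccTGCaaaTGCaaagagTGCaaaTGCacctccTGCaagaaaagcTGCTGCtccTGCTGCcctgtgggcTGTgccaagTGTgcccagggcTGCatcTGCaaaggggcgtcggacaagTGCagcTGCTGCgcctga
MT1E: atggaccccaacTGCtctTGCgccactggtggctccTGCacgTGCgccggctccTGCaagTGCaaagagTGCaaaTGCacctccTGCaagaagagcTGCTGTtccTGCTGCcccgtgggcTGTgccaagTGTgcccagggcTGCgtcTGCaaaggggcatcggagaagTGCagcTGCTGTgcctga
MT1X: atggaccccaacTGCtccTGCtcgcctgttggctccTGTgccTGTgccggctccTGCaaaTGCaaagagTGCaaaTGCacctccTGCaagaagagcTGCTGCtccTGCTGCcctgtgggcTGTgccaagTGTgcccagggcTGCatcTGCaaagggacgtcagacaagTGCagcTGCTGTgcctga
MT1F: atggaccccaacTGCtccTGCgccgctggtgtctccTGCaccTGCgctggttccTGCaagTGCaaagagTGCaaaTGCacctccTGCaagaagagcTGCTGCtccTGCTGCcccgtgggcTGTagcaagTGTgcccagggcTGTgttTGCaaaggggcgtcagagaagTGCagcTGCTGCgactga
Each of these sequences has 186 bases, and 20 of its 61 codons before the stop, or 32.8%, encode cysteine. MT2A shares 92.5% of its coding bases with MT1E, 92.5% with MT1X and 91.4% with MT1F, and the lowest identity among the 4 genes is 88.7%, between MT1F and MT1X. A stretch of 150 bases, the length of 1 read, was never identical to another gene's transcript anywhere in MT2A, MT1E, MT1F, MT1G or MT1M, and 6.67% of such stretches were in MT1X, all with an unnamed overlapping gene on the same strand that has no row in the table. With stretches of 50 bases the shared part was 11.1% for MT2A, 5.34% for MT1E and 6.12% for MT1F. It was 14.6% for MT1M, 19.9% for MT1G and 51.0% for MT1X, the highest of the tested members. The most frequent partner of MT1X was again the unnamed overlapping gene. How reads with several possible origins were counted is not given in the sources used here.

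The sequence before the transcription start is shown for MT2A, MT1X and SLC30A1, which are known to be induced by zinc. The 250 bases are from RefSeq promoters on GRCh38.p14, 5′ to 3′ on the strand of the gene, and capitals mark each match to TGCACNC or TGCGCNC, the core of the metal response element, on either strand.
MT2A, chr16:56608334-56608583, plus strand: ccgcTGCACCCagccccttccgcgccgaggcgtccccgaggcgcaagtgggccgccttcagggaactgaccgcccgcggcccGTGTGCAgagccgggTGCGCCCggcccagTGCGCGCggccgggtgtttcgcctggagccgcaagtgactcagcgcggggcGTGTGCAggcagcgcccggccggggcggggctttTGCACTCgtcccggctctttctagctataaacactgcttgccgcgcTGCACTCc
MT1X, chr16:56682220-56682469, plus strand: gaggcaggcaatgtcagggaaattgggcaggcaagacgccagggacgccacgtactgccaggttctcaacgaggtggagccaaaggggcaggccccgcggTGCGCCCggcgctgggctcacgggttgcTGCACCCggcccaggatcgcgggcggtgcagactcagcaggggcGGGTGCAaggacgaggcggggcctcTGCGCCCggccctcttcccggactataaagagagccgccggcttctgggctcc
SLC30A1, chr1:211579162-211579411, minus strand: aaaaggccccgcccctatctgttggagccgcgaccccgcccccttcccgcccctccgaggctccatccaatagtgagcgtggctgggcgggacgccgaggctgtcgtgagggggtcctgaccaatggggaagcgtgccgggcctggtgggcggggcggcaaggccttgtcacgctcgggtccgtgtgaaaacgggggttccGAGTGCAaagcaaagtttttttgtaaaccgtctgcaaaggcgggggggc
Counted from 250 bases before to 50 bases after the start, MT2A had 8 matches, MT1X had 4, SLC30A1 had 2 and MTF1 had 0, and no matches overlapped each other. Among 35116 RefSeq promoters of the same 300 bases, 29.6% had at least 1 match, 8.60% at least 2, 0.601% at least 4 and 0.0199% at least 8. A match is only a run of letters, and binding of MTF1 was not measured in these cells. Of the 8 genes, the promoters of MT2A, MT1X, SLC30A1 and MTF1 were matched in the RefSeq table, and those of MT1E, MT1F, MT1G and MT1M were not.

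The siNC libraries held from 25895920 to 28242947 counts and the siE7 libraries from 25608192 to 29550264. Levels are given as CPM, a gene's counts relative to the scaled library size, after scaling by TMM factors, which lay between 0.936 and 0.954 with siNC and between 1.00 and 1.10 with siE7. MKI67, the targeted gene, had 1072, 1029 and 1077 CPM with siNC and 112, 124 and 108 CPM with siE7, a log2 fold change of -3.21 ± 0.114 (SE; adjusted p = 6.7e-08, quasi-likelihood test of edgeR, Benjamini-Hochberg). The library siE7 replicate 1 stood apart from the other siE7 libraries, with a chi-square per degree of freedom of 61.1 and 72.7 against them, while other pairs within a group gave 5.54 to 6.22. All 9 squamous epithelial markers examined were abundant enough to be tested, and 5 were lower and 1 higher at an adjusted p under 0.05, while their summed level overlapped (23315 to 24830 CPM with siNC and 21359 to 27837 CPM with siE7). This overlap came from siE7 replicate 1, and the other siE7 libraries, at 21359 and 21485 CPM, lay below every siNC library. CDH1 fell the most, from 171 to 83.6 CPM (log2 fold change -1.03, adjusted p = 0.00014, edgeR), and passed the call rule given below. None of 4 endothelial markers could be tested, and of 6 leukocyte markers 4 had no row and CD14 alone was tested (2.95 CPM with siNC and 2.05 CPM with siE7). Of 6 fibroblast markers, COL1A1 (15.3 and 18.3 CPM) and COL1A2 (2.17 and 1.63 CPM) were tested and did not pass. DCN, below the filter, had 0, 1 and 2 counts with siNC and 8, 11 and 19 counts with siE7 (adjusted p = 0.0039 in edgeR without the filter). The summed fibroblast markers overlapped, at 16.4 to 19.5 CPM with siNC and 18.2 to 24.1 CPM with siE7, and their part in the results was not tested. A gene was called a differentially expressed gene (DEG) when its adjusted p was under 0.05 and its log2 fold change lay beyond 1 in either direction. This held for 1792 of 14661 tested genes, a background of 12.2%, with 7.38% called higher and 4.84% called lower with siE7. An adjusted p under 0.05 alone was found for 34.0% of the tested genes, 18.0% higher and 16.0% lower, and the libraries of both groups did not overlap for 47.6% of the tested genes.

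Among the 6 tested members, 2 were DEGs, MT2A and MT1E, and both were lower with siE7. Over all tested genes 12.2% were called, and 4.84% were called lower. With MTF1, 3 members had an adjusted p under 0.05, beside 34.0% of all tested genes. These were also the 3 members whose siE7 and siNC libraries did not overlap. The median log2 fold change of the 6 was 0.00, beside 0.08 over all tested genes. The 3 of 6 without overlap lie near the background of 47.6%, and the members are therefore described by their own values. In bulk RNA, fewer cells with a transcript and less of it per cell cannot be told apart.

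**Figure D1:**
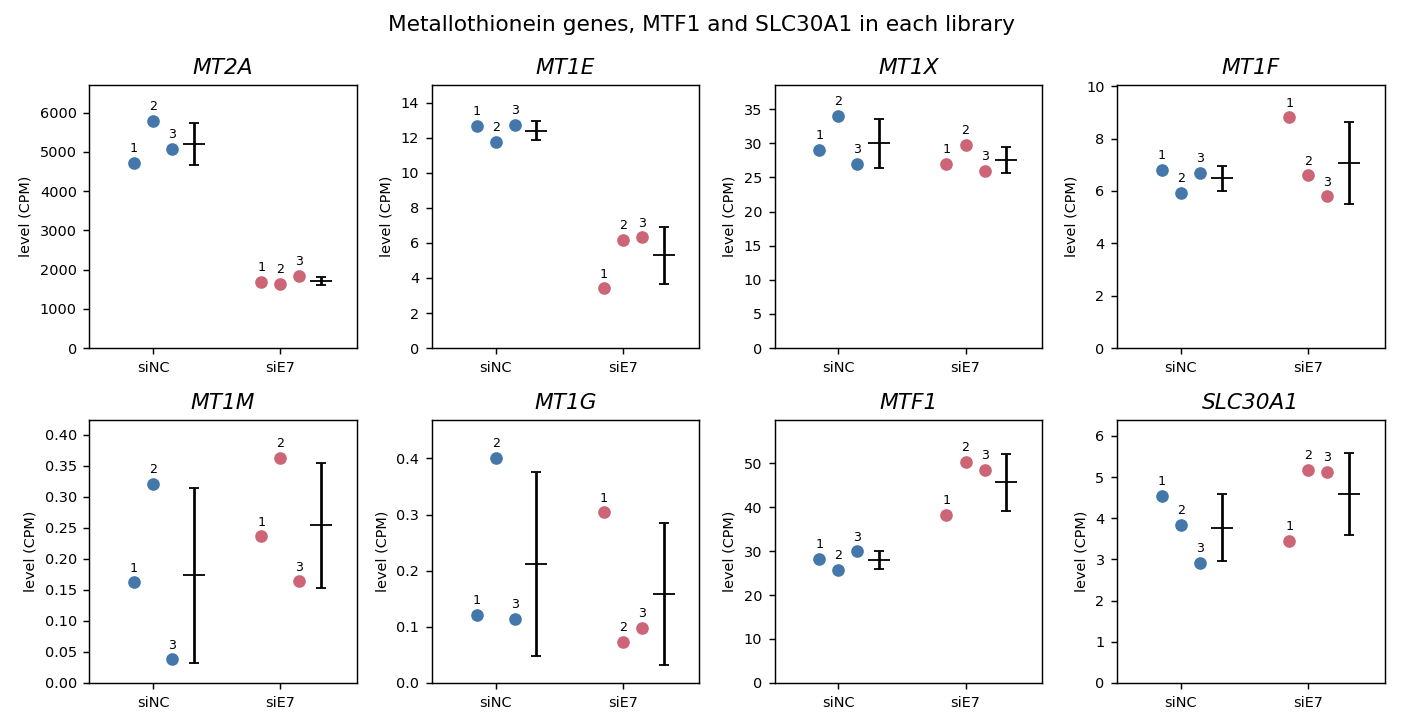
Level of each of the 8 genes in every library, in CPM scaled by TMM factors on a linear axis from 0. Points are libraries with their replicate number (blue, siNC; red, siE7), and bars give the mean and SD of 3 libraries. All siE7 libraries lie below all siNC libraries for MT2A and MT1E and above them for MTF1.

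MT2A (ENSG00000125148.7) encodes the metallothionein that is the most abundant in many human cells. The gene lies on GRCh38 at chr16:56608584-56609497 on the plus strand and has 3 exons. It received 116676, 144280 and 133713 counts with siNC and 50217, 44844 and 55964 counts with siE7. On the scaled level, these were 4726, 5776 and 5063 CPM with siNC and 1694, 1625 and 1830.5 CPM with siE7. Every siE7 library lay far below every siNC library. The mean fell from 5188 ± 536 CPM to 1716 ± 105 CPM (SD, n = 3), so MT2A was 3.02-fold lower with siE7. On the log2 scale the change was -1.60 ± 0.115 (SE; adjusted p = 4.8e-06, quasi-likelihood test of edgeR, Benjamini-Hochberg), which ranked 48 among all tested genes by p-value.

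MT2A was one of the most abundant transcripts of these cells. Per kilobase of transcript, it was at 12939 ± 1337 CPM with siNC and 4280 ± 261 CPM with siE7 (SD, n = 3). By this measure it ranked 1 among all genes in each siNC library, and 5, 5 and 4 in the siE7 libraries. Without division by length, it ranked 18, 14 and 16 with siNC and 58, 52 and 42 with siE7. MT2A alone took 0.451%, 0.543% and 0.473% of all counts in the siNC libraries and 0.170%, 0.175% and 0.201% in the siE7 libraries.

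MT1E (ENSG00000169715.15), another zinc-binding metallothionein, lies at chr16:56625475-56627112 on the plus strand. It received 313, 294 and 336 counts with siNC and 101, 170 and 193 counts with siE7. Its level was 12.7, 11.8 and 12.7 CPM with siNC and 3.41, 6.16 and 6.31 CPM with siE7. The groups did not overlap, and siE7 replicate 1 was the lowest library. The mean was 12.4 ± 0.538 CPM with siNC and 5.29 ± 1.63 CPM with siE7 (SD, n = 3), or 2.34-fold lower, and the log2 fold change was -1.23 ± 0.225 (SE; adjusted p = 0.0018, quasi-likelihood test of edgeR, Benjamini-Hochberg). Without siE7 replicate 1 the log2 fold change was -1.05 and MT1E was still called. When the test asked whether the fold change itself exceeded 1 on the log2 scale (glmTreat of edgeR), the adjusted p of MT1E was 0.74 and the call was lost, whereas MT2A, with an adjusted p of 0.0025, was still called. These were the highest values over all settings, and the lowest were 2.2e-08 for MT1E and 6e-35 for MT2A.

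MT1X (ENSG00000187193.9), at chr16:56682470-56684196 on the plus strand, had the most counts of the metallothioneins after MT2A. Its counts were 716, 849 and 711 with siNC and 800, 820 and 793 with siE7, which gave 29.0, 34.0 and 26.9 CPM and 27.0, 29.7 and 25.9 CPM. The libraries of the groups overlapped. The mean was 29.97 ± 3.63 CPM with siNC and 27.5 ± 1.95 CPM with siE7 (SD, n = 3). The log2 fold change of MT1X was -0.12 ± 0.135 (SE; adjusted p = 0.51, edgeR) and turned to 0.047 when libraries were scaled by their totals alone.

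MT1F (ENSG00000198417.7), at chr16:56657731-56660698 on the plus strand, had 168, 148 and 177 counts with siNC and 261, 182 and 177 counts with siE7. Its level was 6.80, 5.92 and 6.70 CPM with siNC and 8.81, 6.59 and 5.79 CPM with siE7. Here siE7 replicate 1 was the highest of all libraries, and the others overlapped. The mean was 6.48 ± 0.481 CPM with siNC and 7.06 ± 1.56 CPM with siE7 (SD, n = 3). The log2 fold change of MT1F was 0.12 ± 0.198 (SE; adjusted p = 0.65, edgeR), and it was -0.13 without siE7 replicate 1.

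MT1G and MT1M were near the limit of detection. MT1G (ENSG00000125144.14), at chr16:56666730-56668065 on the minus strand, had 3, 10 and 3 counts with siNC and 9, 2 and 3 counts with siE7. MT1M (ENSG00000205364.4), at chr16:56632659-56633981 on the plus strand, had 4, 8 and 1 counts with siNC and 7, 10 and 5 counts with siE7. Both genes overlapped between the groups, and no difference was detectable at this depth. Tested without the filter on low counts, the log2 fold change was -0.42 ± 0.895 for MT1G and 0.53 ± 0.837 for MT1M (SE), with adjusted p = 0.77 and adjusted p = 0.68 from edgeR.

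Along the cluster on chromosome 16, the order of those with more than 3 counts per group is MT2A, MT1L, MT1E, MT1M, MT1F, MT1G and MT1X, and the DEGs were the first and the third of these, with MT1L between them. MT1L (ENSG00000260549.2), annotated as a transcribed pseudogene, had 17.3, 23.0 and 22.2 CPM with siNC and 15.4, 15.5 and 17.2 CPM with siE7. The groups did not overlap, but the log2 fold change of -0.38 ± 0.152 (SE) had an adjusted p of 0.074 in edgeR, and over the other settings this p lay between 0.002, without siE7 replicate 1, and 1. All stretches of 150 bases of the annotated MT1L transcript are shared with an unnamed gene that overlaps it and has no row in the table. Of 12 further metallothionein genes and pseudogenes looked for, MT1H, MT1JP, MT1DP, MT1P1 and MT1P3 had at most 3 counts in either group and 7 had no row. MT2P1, a pseudogene of MT2A on chromosome 4, was also in the table, with 1, 0 and 1 counts with siNC and 0 counts with siE7.

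Whether the lower MT2A was balanced by other metallothioneins was examined by adding the counts of all 13 metallothionein rows. This sum does not depend on how the counted reads were split between these rows. Reads left out of the counting or given to genes outside these rows would be missing from it. The sum was 4792, 5851 and 5132 CPM with siNC and 1749, 1683 and 1886 CPM with siE7. It followed MT2A, which made up 98.6% to 98.7% of the metallothionein counts with siNC and 96.5% to 97.1% with siE7. Tested as 1 row in place of the 13, the sum changed by -1.57 ± 0.114 on the log2 scale (SE; adjusted p = 5.2e-06, quasi-likelihood test of edgeR, Benjamini-Hochberg). With MT2A left out of the sum, the remaining rows had 66.2, 75.5 and 68.9 CPM with siNC and 55.2, 58.4 and 55.5 CPM with siE7. These groups did not overlap either, and the log2 fold change of this smaller sum was -0.32 ± 0.110 (SE; adjusted p = 0.044, edgeR, Benjamini-Hochberg), which is short of the fold of a DEG. Among its rows, the mean of MT1E went from 12.4 to 5.29 CPM and that of the pseudogene MT1L from 20.8 to 16.0 CPM. MT1X and MT1F overlapped between the groups, so the lower sum was not shared by all its rows. No metallothionein row was called higher.

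**Figure D2:**
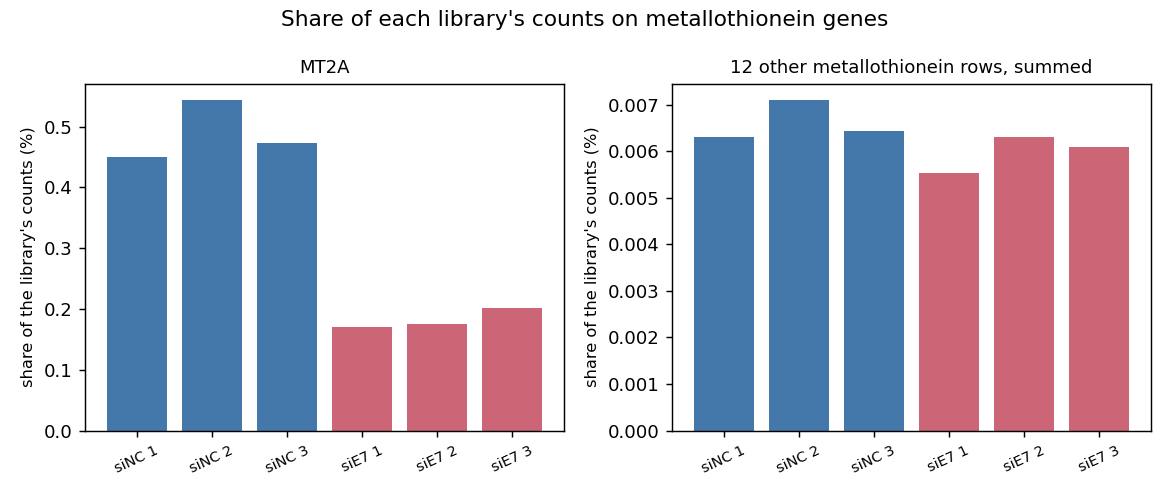
Share of all counts of each library, in percent, that fell on MT2A (left) and on the other 12 metallothionein rows added together (right), with axes from 0 that differ in scale. Blue bars are siNC and red bars siE7 libraries. MT2A takes 0.451% to 0.543% with siNC and 0.170% to 0.201% with siE7.

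Ratios of 2 metallothioneins within a library do not depend on the scaling between libraries. The ratio of MT2A to MT1X counts was 163, 170 and 188 with siNC and 62.8, 54.7 and 70.6 with siE7. The ratio of MT2A to MT1F counts was 695, 975 and 755 with siNC and 192, 246 and 316 with siE7. Both ratios were lower in each siE7 library than in each siNC library, so within the libraries MT2A was lower relative to MT1X and to MT1F. MT1E relative to MT1X was 0.437, 0.346 and 0.473 with siNC and 0.126, 0.207 and 0.243 with siE7, and MT1E relative to MT1F was on average 1.92 ± 0.0636 with siNC and 0.804 ± 0.369 with siE7 (SD, n = 3). For each of these 4 ratios an exact permutation test (two-sided) gave p = 0.1, the smallest value that 3 against 3 libraries allow, and an adjusted p of 0.15 over the 6 pairs compared. The ratio of MT2A to MT1E, 420 ± 62.1 with siNC and 350 ± 128 with siE7 (SD, n = 3), overlapped between the groups (exact permutation p = 0.4), as did that of MT1X to MT1F (exact permutation p = 0.6). For MT2A to MT1E the values were 373, 491 and 398 with siNC and 497, 264 and 290 with siE7. The overlap came from siE7 replicate 1, and the other siE7 libraries lay below every siNC library.

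MTF1 (ENSG00000188786.10), the factor that senses zinc and induces metallothionein genes, lies at chr1:37809574-37859592 on the minus strand and has 11 exons. It received 699, 643 and 790 counts with siNC and 1133, 1389 and 1482 counts with siE7. Its level was 28.3, 25.7 and 29.9 CPM with siNC and 38.2, 50.3 and 48.5 CPM with siE7. Every siE7 library lay above every siNC library, and siE7 replicate 1 was the lowest of its group. The mean was 28.0 ± 2.11 CPM with siNC and 45.7 ± 6.52 CPM with siE7 (SD, n = 3), or 1.63-fold higher. At 0.71 ± 0.139 on the log2 scale (SE; adjusted p = 0.0028, quasi-likelihood test of edgeR, Benjamini-Hochberg), MTF1 passed the threshold on p and not that on the fold. The RNA of the factor was thus higher while the RNA of MT2A and MT1E was lower, and neither the protein nor the zinc level was measured in these libraries.

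SLC30A1 (ENSG00000170385.10), at chr1:211571568-211579161 on the minus strand with 2 exons, encodes the zinc exporter of the plasma membrane. It had 112, 96 and 77 counts with siNC and 102, 143 and 157 counts with siE7. Its level was 4.54, 3.84 and 2.92 CPM with siNC and 3.44, 5.18 and 5.14 CPM with siE7. The groups overlapped, with siE7 replicate 1 below the mean of siNC. The mean was 3.77 ± 0.813 CPM with siNC and 4.59 ± 0.992 CPM with siE7 (SD, n = 3), and the log2 fold change of 0.29 ± 0.240 (SE; adjusted p = 0.38, edgeR) did not exceed the spread between libraries. Without siE7 replicate 1 it was 0.40 (adjusted p = 0.084, edgeR, the lowest over all settings).

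Per kilobase of transcript, the order of the levels with siNC was MT2A, MT1X, MT1E, MT1F, MTF1, SLC30A1, MT1G and MT1M. The pseudogene MT1L, over its short annotated transcript of 186 bases, was above MT1X at 112 ± 16.5 CPM per kilobase (SD, n = 3). MT1X was at 74.2 ± 8.99, MT1E at 17.6 ± 0.764 and MT1F at 15.2 ± 1.13 CPM per kilobase (SD, n = 3), and these 3 did not overlap in the siNC libraries. MTF1 followed with 3.53 ± 0.265 and SLC30A1 with 0.639 ± 0.138 CPM per kilobase, and SLC30A1, MT1G and MT1M overlapped. With siE7 the places of MT1E and MT1F were exchanged, at 7.52 ± 2.32 and 16.6 ± 3.67 CPM per kilobase, and MT1E overlapped MTF1, which was at 5.75 ± 0.821 CPM per kilobase.

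The transporters that move zinc between the cytosol, the organelles and the outside were counted as lists. Of the other 10 zinc exporter genes, 5 could be tested, and none was called, beside 12.2% of all tested genes. SLC30A5, which loads zinc into the secretory pathway, was at 11.0, 11.4 and 11.0 CPM with siNC and 16.3, 21.4 and 22.2 CPM with siE7, so its groups did not overlap. Its log2 fold change was 0.84 ± 0.159 (SE; adjusted p = 0.0022, edgeR, Benjamini-Hochberg). SLC30A5 alone of the 5 had an adjusted p under 0.05 in this fit, beside 34.0% of all tested genes. SLC30A4 at 0.48 (adjusted p = 0.075) and SLC30A9 at 0.43 (adjusted p = 0.13) came next by p in the same edgeR fit. Without siE7 replicate 1 both passed, SLC30A4 at 0.46 (adjusted p = 0.040) and SLC30A9 at 0.61 (adjusted p = 7.1e-07), and their adjusted p reached 1 under glmTreat. The median log2 fold change of the exporters was 0.43, beside 0.08 over all tested genes.

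Among the zinc importers, which bring zinc into the cytosol, 11 of 14 genes were tested and 1 was called, near the background of 12.2%. Their median log2 fold change was 0.22, beside 0.08 over all tested genes, and 0.40 beside 0.25 when libraries were scaled by their totals alone. SLC39A4, the importer that takes up zinc from the diet in the gut, had 26.3, 28.0 and 28.7 CPM with siNC and 13.9, 11.0 and 11.5 CPM with siE7. All siE7 libraries were below all siNC libraries, and the log2 fold change was -1.19 ± 0.144 (SE; adjusted p = 0.00013, edgeR, Benjamini-Hochberg). SLC39A7, which releases zinc from the endoplasmic reticulum, and SLC39A9 were higher, with log2 fold changes of 0.65 (adjusted p = 0.0017) and 0.69 (adjusted p = 0.00054) in the same edgeR fit. SLC39A10 was at -0.57 with an adjusted p of 0.11 from edgeR, and its side of the threshold depended on the setting. Without siE7 replicate 1 it was at -0.36 (adjusted p = 0.033), with DESeq2 at -0.63 (adjusted p = 0.049) and with the GC trend removed at -0.70 (adjusted p = 0.00066), while the adjusted p was 1 under glmTreat.

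**Figure D3:**
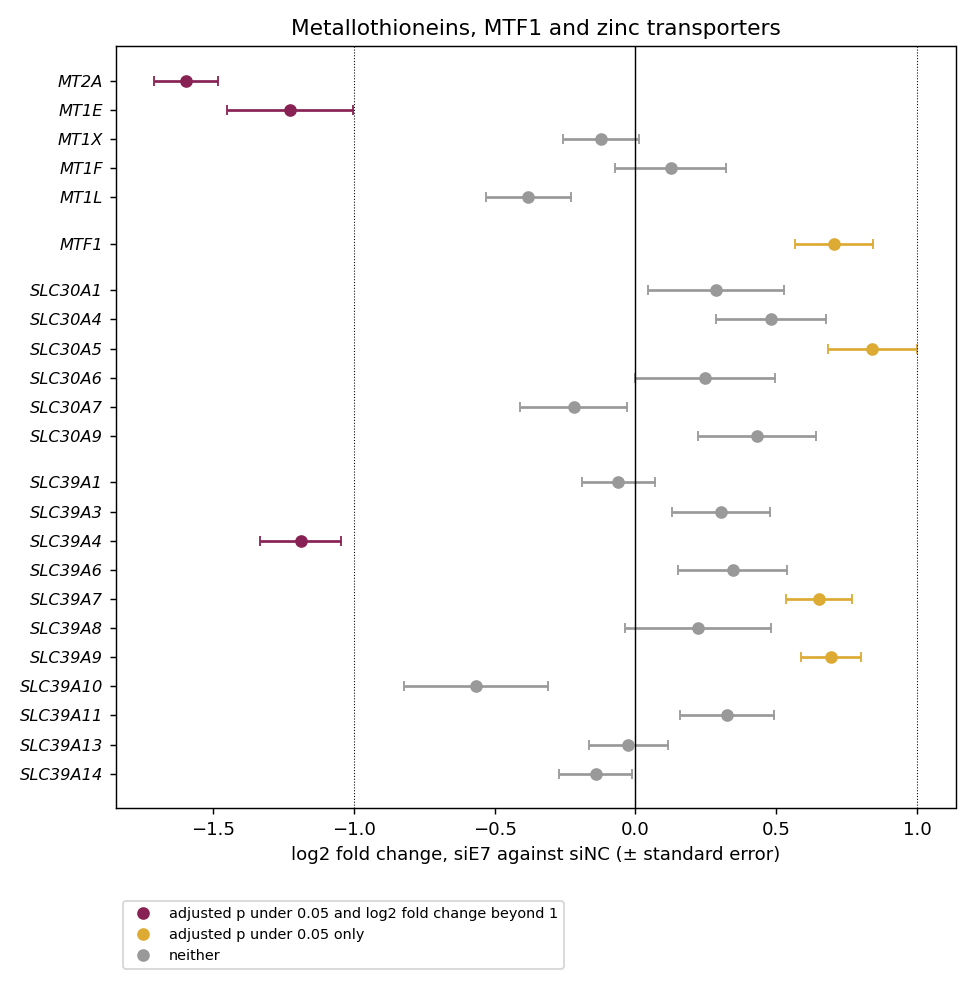
Log2 fold change of siE7 against siNC, with its standard error, for each tested metallothionein, MTF1 and each tested zinc transporter of the SLC30 and SLC39 families. Dotted lines mark a log2 fold change of 1 in either direction, and colours mark the thresholds passed. MT2A, MT1E and SLC39A4 are the only genes drawn that pass both.

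Metallothioneins also bind copper and answer to metals, oxidative stress and glucocorticoids, so genes of these responses were counted in the same libraries. Of 11 copper-handling genes, all tested, none was called, beside 12.2% of all tested genes. At an adjusted p under 0.05, 3 were higher and 1 lower. These 4 of 11 lie near the background of 34.0%, so the members are given as single values. The copper importer SLC31A1 was at 0.44, the copper exporter ATP7B at 0.69 and CCS, the chaperone that loads superoxide dismutase, at 0.46 on the log2 scale. ATOX1, which hands copper to the exporters, was at -0.77 (adjusted p = 0.0038, edgeR, Benjamini-Hochberg). The median of the copper list was 0.13, beside 0.08 over all tested genes.

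Of 9 tested genes known to respond to metals or to the stress that metals cause, 1 was called, higher, and in all 4 were higher and 1 lower at an adjusted p under 0.05. The 1 of 9 lies near the background of 12.2%. At an adjusted p under 0.05, 18.0% of all tested genes were higher and 16.0% lower. The median log2 fold change of the list was 0.37, beside 0.08 over all tested genes. HMOX1, which degrades haem and responds strongly to cadmium and oxidants, had 6.76, 6.85 and 7.73 CPM with siNC and 29.3, 22.1 and 25.8 CPM with siE7. Its log2 fold change was 1.85 ± 0.160 (SE; adjusted p = 1.3e-05, edgeR, Benjamini-Hochberg), opposite in sign to that of MT2A. GCLC, the enzyme that limits glutathione synthesis and a known target of MTF1, was at 0.99 (adjusted p = 0.00033 by edgeR) and PGF, also known to be induced by MTF1, at 0.84 (adjusted p = 0.0094 by edgeR). SELENOW, of the same list, was at 0.0066 (adjusted p = 0.98 by edgeR) and overlapped between the groups. TXNRD1, a thioredoxin reductase, was at 0.75, whereas HSPA1B, a heat shock protein induced by metals, was at -0.52. None of the other heat shock genes of the list had an adjusted p under 0.05 in edgeR. HSPA1A was at -0.08, DNAJB1 at -0.22 and HSPA6 at 0.37. GCLC stood at the limit of the fold, and it was called without siNC replicate 3 (1.07), without siE7 replicate 1 (1.03), with upper-quartile scaling (1.02), with no composition scaling (1.17) and with at least 10 counts required in each library (1.02).

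The glucocorticoid list was counted because both groups received hydrocortisone. It was chosen with earlier results of these data known, so its counts beside the background are descriptions only. Of 12 genes, all tested, 6 were called higher and 1 lower with siE7, beside 7.38% higher and 4.84% lower over all tested genes, and the median log2 fold change was 0.87, beside 0.08 over all tested genes. ZBTB16, a zinc finger repressor induced by glucocorticoids, had 1.70, 0.801 and 1.29 CPM with siNC and 25.1, 24.6 and 23.0 CPM with siE7, a log2 fold change of 4.26 ± 0.233 (SE; adjusted p = 7e-07, edgeR, Benjamini-Hochberg). TSC22D3, which encodes GILZ, an anti-inflammatory protein, was at 1.65, ERRFI1, an inhibitor of the EGF receptor, at 1.32, FKBP5, a chaperone of the glucocorticoid receptor, at 1.13, the phosphatase gene DUSP1 at 1.09 and the clock gene PER1 at 1.09. CRISPLD2 was called lower, at -1.20 (adjusted p = 0.015, edgeR, Benjamini-Hochberg). PER1 was not called without siE7 replicate 1 (0.91), DUSP1 with the length trend removed (0.97), or CRISPLD2 without siNC replicate 1 (-0.92) or without siE7 replicate 2 (-1.04). Under glmTreat only ZBTB16 and TSC22D3 of the 7 were called, and ERRFI1 had an adjusted p of 0.074, FKBP5 of 0.58 and DUSP1, PER1 and CRISPLD2 of 1. MT2A and MT1E, which glucocorticoids are also known to induce, were thus lower in the libraries in which these 6 genes were higher, and the part of hydrocortisone in either was not tested. Of 4 iron-handling genes, all tested, none was called, beside 12.2% of all tested genes. FTH1, the heavy chain of ferritin, was higher at 0.33 (adjusted p = 0.026, edgeR, Benjamini-Hochberg). It alone of the 4 had an adjusted p under 0.05, beside 34.0% of all tested genes.

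The genes whose levels over the 6 libraries were most like those of MT2A were found by the root mean square difference of log2 levels, each centred on its own mean, among 12819 genes with a mean of at least 1 CPM. KRT86, a hair keratin, was closest at 0.0251, followed by the noncoding RNA RP11-172H24.4 at 0.0601, the gap junction gene GJA5 at 0.0862, the cadherin gene CDH4 at 0.0922 and ALDH1A3, an enzyme of retinoic acid synthesis, at 0.0957. Their log2 fold changes in siE7 lay between -2.33 (CDH4) and -1.57 (ALDH1A3), beside -1.60 for MT2A. KRT86 was at -1.61, GJA5 at -1.70 and RP11-172H24.4 at -2.05, so CDH4 and RP11-172H24.4 fell by more than MT2A. The log2 levels were taken after a small constant was added to CPM, which narrows the fold of genes with low CPM. Likeness to MT2A therefore holds on that scale and does not mean an equal fold change. The genes most like SLC30A1 were FLVCR1, a haem exporter, at 0.0549, ZBTB14 at 0.0561, MSMO1 at 0.0600, DUS4L at 0.0631 and PPFIBP2 at 0.0653. These are descriptions over 6 libraries that share the same groups.

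Over 19 other settings, MT2A lay between -1.77 and -1.43 and was called in each, MT1E lay between -1.42 and -1.05 and lost its call under glmTreat, and MTF1 lay between 0.63 and 0.88. SLC30A1 lay between 0.12 and 0.46 and passed in none. MT1X lay between -0.29 and 0.047 and MT1F between -0.13 and 0.28, so the sign of both depended on the setting. Scaling by library totals alone, without TMM factors, moved the median log2 fold change of all tested genes from 0.08 to 0.25 and the share of higher genes among the DEGs from 60.4% to 76.2%. Relative to the median of all genes, MT2A and MT1E were lower and MTF1 was higher under both scalings.

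**Figure D4:**
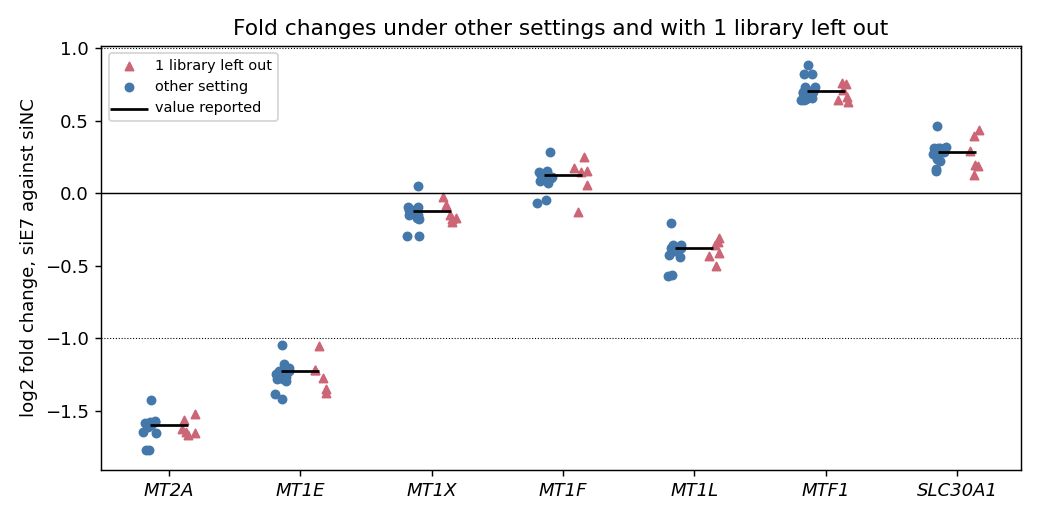
Log2 fold change of siE7 against siNC for each tested metallothionein, MTF1 and SLC30A1 as reported (black lines), under other settings (blue circles) and with 1 library left out (red triangles). Dotted lines mark a log2 fold change of 1 in either direction. MT2A and MT1E stay below -1 at every point, whereas MT1X and MT1F have points on both sides of 0.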

How the data were processed

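Polyadenylated RNA of SCC-9 cells was sequenced with a stranded kit on an Illumina NovaSeq (paired reads of 150 bases). The authors deposited whole-number read counts per gene, without normalization. The submitters' processing notes name HISAT2, DESeq2 and GRCh38, and the counting tool, the annotation release and the use of strand are not given in the sources used here. Of 25349 gene identifiers, 25283 were matched to GENCODE v44 without their version and 20655 with it. Groups were taken from the sample titles and each library was 1 replicate. After filterByExpr and TMM scaling, siE7 was compared with siNC by edgeR 4.0.16 (R 4.3.3; glmQLFit, robust, and glmQLFTest) over 14661 genes, with p-values adjusted over all of them by Benjamini-Hochberg. The test was checked on simulated counts in which 200 genes were changed, as many higher as lower. Of the 199 changed genes tested, 183 were called, and 1 unchanged gene was called. The simulation held no library that stood apart and no lean of the changes to 1 side, so it does not cover these traits of the data. The library totals, from 25608192 to 29550264 counts, set the precision of low genes such as MT1G and MT1M. Metallothionein rows were also added into 1 row. Shared stretches, coding sequences and promoter matches were computed with Python 3.11.15 and pandas 2.3.3, exact permutation tests with scipy 1.17.1, and figures were drawn with matplotlib 3.10.9. Alternatives were DESeq2 1.42.0, limma-voom (limma 3.58.1), glmTreat, scaling by RLE, by the upper quartile or by totals alone (no composition scaling), no filter on counts, a minimum of 10 counts in each library, a replicate block, removal of GC and length trends (lowess, span 0.3) and each library left out. The named genes are all 8 members, other metallothionein rows with a count, called genes of each list with up to 3 others by p, MKI67 and the 5 genes most like MT2A and SLC30A1 (log2 of CPM + 0.5). FTH1, ATP7B, PGF, SELENOW, HSPA1A, DNAJB1, HSPA6 and the marker genes were named outside that rule. The members and lists were chosen with earlier results of these data known. Splicing of exon 7 is not analysed here.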

Additional observations from a re-analysis of the deposited data

How the results depend on the processing

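Under glmTreat, which tests for a log2 fold change beyond 1, the members called and the members with an adjusted p under 0.05 both came to 1, the zinc importers called to 0 and all genes called to 337. Without a condition on the fold change 4990 genes passed. With no composition scaling 1 zinc exporter was called, SLC30A5 at 1.02, and MT1X turned to 0.047. MT1F turned to -0.044 with the length trend removed, to -0.067 with the length trend removed and the replicate block, and to -0.13 without siE7 replicate 1, the other libraries left out giving up to 0.25. Without MT2A, which is also the row with the most counts, the summed metallothioneins were at -0.32 and no longer called. The cause of these shifts was not tested. Leaving out each library in turn, 2 members were called each time, the summed metallothioneins lay between -1.64 and -1.49, MKI67 between -3.27 and -3.16, and all genes called between 1573 and 2219. Libraries with the same replicate number did not deviate together (correlations -0.055, -0.019 and -0.079), so the numbers were not taken as pairs. With the replicate block 2 members and 1819 genes were called, MT2A was at -1.59 and the sum at -1.57. With 3 libraries per group, no exact permutation test can pass 0.05, and the 1 to 10 counts per library of MT1G and MT1M give standard errors of 0.895 and 0.837 on the log2 scale.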
